A study of Mus musculus with 60 samples.

Results

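Nascent transcription was compared between mouse embryonic stem cells (mESCs) that had lost the ΔN form of CTCF for 2 h and vehicle-treated cells of the same line. The comparison rested on 4 of the 60 libraries of the series, 2 control and 2 AGB1 libraries, chosen by their labels. The E14 mESCs carried 2 altered Ctcf alleles and no full-length CTCF in any library. One allele, bTAG-ΔN-CTCF, lacks the N-terminal region and carries a BromoTag degron. The other, dTAG-CTCF-ΔC, keeps the N terminus and the zinc fingers, ends after the last finger and carries an FKBP12 F36V degron. AGB1 (100 nM, 2 h) directs the BromoTag protein to degradation, so the treated cells keep only CTCF without its C terminus. Control cells received vehicle, and all 8 libraries of the line carry 1 batch label. The line was grown from picked colonies, and p-values therefore measure the spread between libraries of 1 clone, with 2 libraries a group. Of the 27665 transcripts in the count table, 13619 passed the filter, a mean of more than 20 reads in either group, and were tested.

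CTCF is a DNA-binding protein whose central zinc fingers read a long, asymmetric motif. Its N-terminal region holds cohesin at CTCF sites and so anchors chromatin loops and domain borders. CTCF also sits at many promoters, where it can act on the bound gene itself. EU-seq labels newly made RNA with 5-ethynyl uridine (here 0.5 mM for 20 min), captures it and sequences it, so read counts over gene bodies follow ongoing transcription rather than the stored mRNA pool. Fewer cells of a type and less new RNA per cell cannot be told apart in such bulk libraries.

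The control libraries held 8444153 and 8810658 counts and the AGB1 libraries 8460761 and 9770606. Replicates correlated at 0.995 (control) and 0.996 (AGB1) in log2 CPM, the read count scaled to library size. This was over 8546 expressed genes, meaning genes with a mean TPM above 15, where TPM is the level per length of gene body. In a principal component analysis of the 8 libraries of the line, the first component held 43.5% of the variance. Control libraries lay at -8.26 and -7.68 on it and AGB1 libraries at 5.49 and 5.11. Dual-treated libraries were further out at 10.2 and 10.6, while libraries treated with dTAG13 alone, which degrades the ΔC form, lay among the controls at -8.55 and -6.93. The 16 naive pluripotency markers summed to 6164 and 6087 CPM in control and 5974 and 5965 CPM in AGB1 libraries. Fibroblast markers summed to at most 1.84 CPM in any of the 4 libraries. Neural (29.2 to 32.8 CPM), endoderm (49.6 to 53.1 CPM), mesoderm (11.6 to 17.0 CPM), trophoblast (88.9 to 108.1 CPM) and 2-cell-like (21.5 to 30.2 CPM) marker sums stayed far below them. Olig2, Mesp1 and Tcstv1 had no read in these 4 libraries. No marker of any of these cell types was called, where 0.316% of all tested were called lower and 0.0881% higher. No fibroblast marker reached the filter. Ctcf itself gave 285 and 293 CPM in control and 287 and 286 CPM in AGB1 libraries. This is no check of the depletion, because AGB1 acts on the protein.

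A gene was called when the adjusted p of edgeR's quasi-likelihood test was under 0.05 and the change was at least 2-fold. Loss of ΔN-CTCF lowered 43 transcripts of 42 genes (0.316% of those tested) and raised 12 (0.0881%). Of the called genes, 24 lower and 2 higher ones were expressed above the TPM threshold. All 43 lower transcripts fell in both same-numbered pairs of libraries, and all 12 higher ones rose in both. For comparison, 203 transcripts were lower and 89 higher at the adjusted p alone, whatever the fold. The central 90% of all log2 fold changes lay between -0.32 and 0.30. Leaving out 1 library at a time left 30 of the 43 lower and 5 of the 12 higher transcripts called each time. The 5 were Gys1, Itgae, Tnni1, Zcwpw2 and Gm37933.

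**Figure D1:**
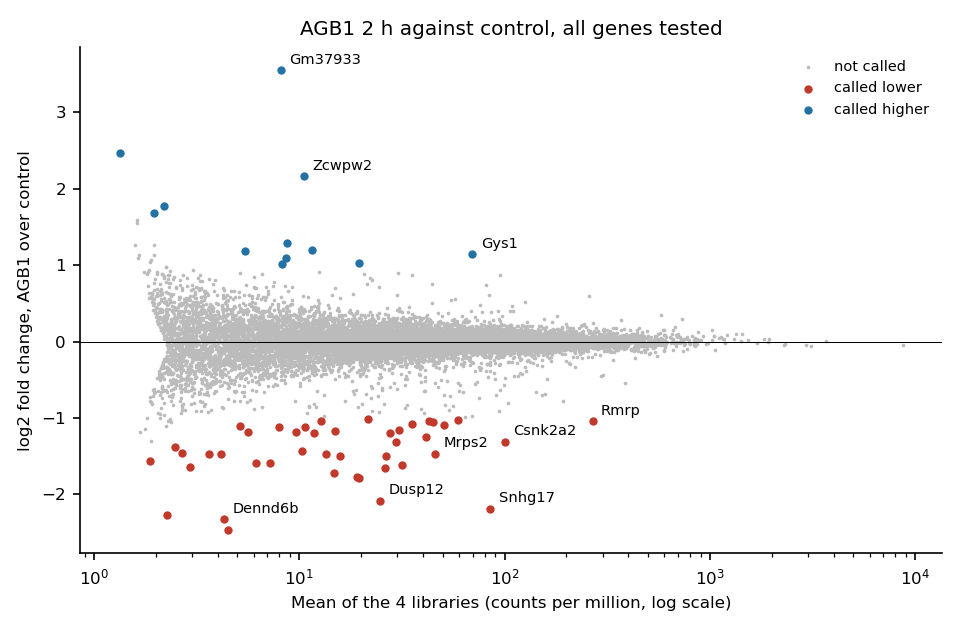
Log2 fold change of AGB1 over control (vertical axis, centred on expressed genes) against the mean CPM of the 4 libraries (horizontal axis, log scale) for the 13619 transcripts tested. The 43 called lower (red) reach from -2.47 to -1.01 and the 12 called higher (blue) from 1.02 to 3.55, while most others lie close to 0.

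The largest well-measured fall was in Snhg17, a noncoding host gene of small nucleolar RNAs on chromosome 2 (158355307 to 158361510, minus strand, mm10). Snhg17 gave 136.9 and 142.5 CPM in the control libraries and 31.0 and 30.2 CPM in the AGB1 libraries. The 2 groups were far apart and the replicates nearly equal, a 4.54-fold decrease (log2 -2.18, SE 0.07, adjusted p = 2.02e-19). Gm23925, annotated as a noncoding RNA of 132 bases inside Snhg17 on the same strand, went from 8.25 and 7.09 CPM to 0.826 and 1.84 CPM. Its reads cannot be separated from those of Snhg17.

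Dusp12, a dual-specificity phosphatase gene on chromosome 1 (170874188 to 170885540, minus strand), had 37.4 and 43.0 CPM in control and 9.91 and 9.08 CPM in AGB1 libraries. This was a 4.23-fold decrease (log2 -2.08, SE 0.13, adjusted p = 1.79e-12). Dph7, whose product works in diphthamide synthesis on elongation factor 2, fell from 31.2 and 28.0 CPM to 7.44 and 9.59 CPM (log2 -1.78, SE 0.14). Adprhl2, which encodes an ADP-ribose hydrolase, fell from 23.1 and 22.5 CPM to 6.37 and 7.35 CPM (log2 -1.72, SE 0.15). For each of these genes both AGB1 libraries lay far below either control.

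Mrps2, a protein of the small mitochondrial ribosomal subunit, went from 65.0 and 69.9 CPM to 27.7 and 21.3 CPM (log2 -1.46, SE 0.10, adjusted p = 9.57e-12). Mrpl23, of the large subunit, was lowly expressed (mean 4.69 TPM) and fell from 3.47 and 4.05 CPM to 0.590 and 0.919 CPM (log2 -2.27, SE 0.40, adjusted p = 0.000394). Nle1, which is needed to build the large cytosolic ribosomal subunit, fell from 21.9 and 19.7 CPM to 9.21 and 9.19 CPM (log2 -1.17, SE 0.14, adjusted p = 1.46e-06).

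Csnk2a2, a catalytic subunit of casein kinase 2 on chromosome 8 (95446096 to 95488827, minus strand), was among the most abundant called genes and fell from 141.0 and 144.8 CPM to 54.2 and 60.3 CPM (log2 -1.31, SE 0.06, adjusted p = 9.55e-15). Tab1, the activating partner of the kinase TAK1, went from 58.8 and 58.2 CPM to 24.6 and 24.6 CPM (log2 -1.24, SE 0.09). Traf6, the ubiquitin ligase upstream of TAK1 in Toll-like receptor signalling, went from 40.4 and 36.9 CPM to 18.2 and 15.6 CPM (log2 -1.19, SE 0.11). Tirap, a Toll-like receptor adaptor, was also called lower, at 10.0 and 11.8 CPM against 5.08 and 5.00 CPM (log2 -1.11), but its change was -0.99 without control replicate 2 and so just short of 2-fold. Traf6 and Tirap were named after their values had been seen.

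The remaining large decreases were in genes of mixed roles. Ttc5, a cofactor of tubulin mRNA decay, went from 49.4 and 46.5 CPM to 17.0 and 14.4 CPM (log2 -1.61). Cdkn2aipnl fell from 43.3 and 35.9 CPM to 13.8 and 11.4 CPM (log2 -1.65). Zbtb39, a zinc finger gene, fell from 22.1 and 24.4 CPM to 8.26 and 8.17 CPM (log2 -1.50). None of these groups overlapped. Tex261, linked to export from the endoplasmic reticulum, fell from 18.4 and 21.1 CPM to 7.08 and 7.14 CPM (log2 -1.47), and Krtcap2, an oligosaccharyltransferase subunit, from 17.2 and 13.1 CPM to 5.08 and 6.02 CPM (log2 -1.43). Comtd1 had few reads (5.02 and 3.94 CPM against 1.18 and 1.63 CPM, log2 -1.64, adjusted p = 0.00293) and was not called by DESeq2 (adjusted p = 0.0945). Below the expression threshold, Dennd6b, which carries a DENN domain, fell from 7.65 and 6.76 CPM to 1.18 and 1.63 CPM (log2 -2.32, SE 0.30), and Saal1 from 29.3 and 31.5 CPM to 7.79 and 9.59 CPM (log2 -1.79, SE 0.14).

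More abundant genes were called nearer to the 2-fold limit. Rab12, a small GTPase, went from 72.6 and 65.1 CPM to 32.9 and 31.5 CPM (log2 -1.09, SE 0.08). Mipep, a mitochondrial peptidase, went from 62.1 and 58.8 CPM to 29.5 and 28.6 CPM (log2 -1.05, SE 0.09). Nomo1, an endoplasmic reticulum membrane protein, went from 74.6 and 84.6 CPM to 38.7 and 39.1 CPM (log2 -1.03, SE 0.08), and to -0.93 without control replicate 2. Rmrp, the RNA of the RNase MRP enzyme, stood apart. Its control libraries had 369 and 352 CPM, but its AGB1 libraries had 258.7 and 93.7 CPM, and the dTAG13 libraries 548 and 116.4 CPM. The Rmrp call (log2 -1.04, adjusted p = 0.000409) was lost with DESeq2 (adjusted p = 1.00), with all 8 libraries of the line in the fit (adjusted p = 0.0817) and without AGB1 replicate 2 (log2 -0.47).

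**Figure D2:**
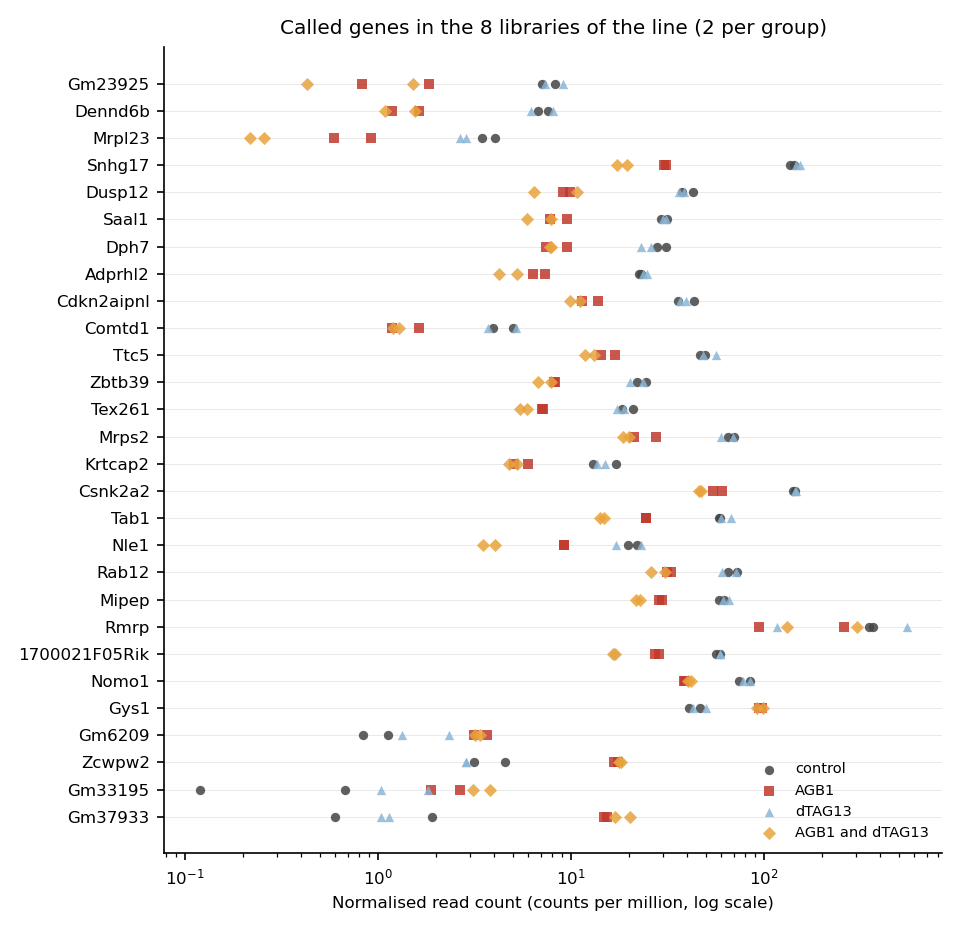
Normalised read counts (CPM, log scale) of the called genes picked by the naming rule given under processing. Each of the 8 libraries of the line is drawn, 2 per group, with 1 row a gene. Called genes named outside that rule, such as Traf6 and Grk4, are not shown. For all rows the AGB1 libraries (red) lie apart from the controls (grey), and the dTAG13 libraries (blue) lie near the controls except for Rmrp and for genes with few reads.

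Genes that rose were fewer, and 10 of the 12 were below the expression threshold. Gm37933, a noncoding RNA on chromosome 3 (86142757 to 86145545, plus strand), was at 0.598 and 1.91 CPM in control and 15.3 and 14.8 CPM in AGB1 libraries. This was the largest change among the called transcripts (log2 3.55, SE 0.27, adjusted p = 1.22e-10), but its size turned on the few control reads, with 2.97 without control replicate 1 and 4.63 without control replicate 2. Its start lies 55 bases from that of Rps3a1, a ribosomal protein gene on the other strand, which gave 147 and 146 CPM in control and 144.5 and 138.1 CPM in AGB1 libraries (log2 -0.05, adjusted p = 0.789). Of this pair only Gm37933 was called.

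Gys1, the glycogen synthase of muscle and most other tissues, was the other expressed gene called higher. Its levels were 40.7 and 46.5 CPM in control and 94.3 and 97.6 CPM in AGB1 libraries (log2 1.14, SE 0.07, adjusted p = 8.25e-12). A second Gys1 transcript in the table rose by 0.89 (adjusted p = 2.52e-05), short of 2-fold. Ruvbl2, which starts 221 bases away on the other strand, changed by -0.02 (adjusted p = 0.948). Grk4, a G protein-coupled receptor kinase gene, likewise rose from 13.2 and 12.6 CPM to 29.0 and 23.8 CPM (log2 1.04; 0.89 without AGB1 replicate 1), while Nop14, 231 bases from it, changed by -0.05 (adjusted p = 0.822). These were the 3 higher genes with a head-to-head neighbour within 1000 bases, or 25% of the 12, against 10.8% of all tested. None of the 3 neighbours was called, and of all 1464 tested transcripts with such a neighbour only 4 had a called one.

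Zcwpw2, annotated as a transcribed pseudogene, rose from 4.54 and 3.15 CPM to 17.6 and 16.7 CPM (log2 2.16, SE 0.19, adjusted p = 2.03e-09). Gm33195 and Gm6209 are noncoding and near the detection limit. Gm33195 had 0.120 and 0.676 CPM in control and 1.89 and 2.65 CPM in AGB1 libraries (log2 2.47, adjusted p = 0.00795; 0.127 without control replicate 1), and it did not reach the filter without AGB1 replicate 2. Gm6209 had 0.837 and 1.13 CPM against 3.66 and 3.16 CPM (log2 1.78, adjusted p = 0.00582; 0.0579 without control replicate 1). DESeq2 called neither (adjusted p = 0.213 and 0.184).

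The called genes differed in length. Genes called lower had a median gene body of 14236 bases (132 to 208411), those called higher 53267 bases (2789 to 182783), and all tested 25381 bases. The lower transcripts were spread over 16 chromosomes, and 40 of the 43 were protein coding. Zfp786 and Zfp398, a pair of zinc finger genes that point away from each other on chromosome 6 (47819266 to 47830867 and 47835695 to 47873537), were both called lower. Zfp786 was not called by DESeq2 (adjusted p = 0.0927) or without control replicate 1 (adjusted p = 0.0510). Of the lower transcripts, 10 (23.3%) overlapped another gene of the table on the opposite strand, against 15.8% of all tested. The libraries are labelled as stranded, and whether strand was used in counting is not given in the sources used here. Ggnbp1, opposite Bak1, was at 5.14 and 5.29 CPM in control and 6.61 and 5.41 CPM in AGB1 libraries while Bak1, a pro-apoptotic gene, fell (log2 -1.20), and Gm47889 was at 3.95 and 5.97 against 4.01 and 5.92 CPM while 1700021F05Rik fell (log2 -1.04).

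Promoter sequence was taken from RefSeq (GRCm38.p6) in windows of 300 bases that reach into the first transcribed bases. Shown are 5 genes called lower whose windows match a letter pattern of the CTCF motif, and Snhg17, the best-measured decrease, whose window matches none. Capitals mark matches to the 12-base CTCF core consensus or to AGGGGGC, on either strand. AGGGGGC is a spelling that the last 7 bases of the consensus allow. A core match need not hold it, as in Krtcap2. The motifs can overlap, as in Adprhl2. The Krtcap2 window starts from a RefSeq start 472 bases from the annotated one.
Dennd6b (chr15:89196425-89196724, minus strand): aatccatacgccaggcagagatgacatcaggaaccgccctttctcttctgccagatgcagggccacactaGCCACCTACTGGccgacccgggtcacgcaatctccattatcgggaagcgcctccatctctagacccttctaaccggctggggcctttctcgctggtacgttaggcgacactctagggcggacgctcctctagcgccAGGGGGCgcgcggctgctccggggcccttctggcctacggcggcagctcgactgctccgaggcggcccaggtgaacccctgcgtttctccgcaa
Adprhl2 (chr4:126321654-126321953, minus strand): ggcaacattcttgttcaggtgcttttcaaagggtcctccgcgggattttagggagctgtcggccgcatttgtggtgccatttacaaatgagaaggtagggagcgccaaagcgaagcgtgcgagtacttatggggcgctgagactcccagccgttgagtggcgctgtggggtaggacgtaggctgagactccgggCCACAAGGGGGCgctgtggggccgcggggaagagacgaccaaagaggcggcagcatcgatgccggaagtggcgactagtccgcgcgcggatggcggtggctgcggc
Krtcap2 (chr3:89246188-89246487, plus strand): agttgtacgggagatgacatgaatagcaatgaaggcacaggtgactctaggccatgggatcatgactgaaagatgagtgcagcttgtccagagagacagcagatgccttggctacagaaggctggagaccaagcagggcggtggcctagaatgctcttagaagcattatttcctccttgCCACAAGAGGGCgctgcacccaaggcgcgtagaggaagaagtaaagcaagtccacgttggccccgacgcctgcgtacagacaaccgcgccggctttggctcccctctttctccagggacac
Csnk2a2 (chr8:95488771-95489070, minus strand): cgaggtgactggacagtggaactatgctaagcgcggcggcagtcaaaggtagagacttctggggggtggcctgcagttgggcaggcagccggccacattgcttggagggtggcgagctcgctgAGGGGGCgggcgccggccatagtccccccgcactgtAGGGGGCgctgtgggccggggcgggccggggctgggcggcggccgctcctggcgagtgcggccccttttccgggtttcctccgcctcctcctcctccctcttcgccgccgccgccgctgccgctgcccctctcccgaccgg
Rab12 (chr17:66519621-66519920, minus strand): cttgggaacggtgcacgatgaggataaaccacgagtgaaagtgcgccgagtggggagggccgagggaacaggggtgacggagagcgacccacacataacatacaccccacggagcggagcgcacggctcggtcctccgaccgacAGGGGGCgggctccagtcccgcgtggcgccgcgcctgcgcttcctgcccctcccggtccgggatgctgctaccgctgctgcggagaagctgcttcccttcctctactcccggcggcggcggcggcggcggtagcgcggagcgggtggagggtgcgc
Snhg17 (chr2:158361460-158361759, minus strand): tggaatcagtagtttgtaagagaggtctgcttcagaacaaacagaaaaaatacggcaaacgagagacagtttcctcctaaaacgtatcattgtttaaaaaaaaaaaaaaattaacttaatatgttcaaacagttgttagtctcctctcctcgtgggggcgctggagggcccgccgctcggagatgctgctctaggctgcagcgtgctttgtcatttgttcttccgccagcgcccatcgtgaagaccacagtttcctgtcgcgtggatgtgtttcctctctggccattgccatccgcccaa

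AGGGGGC was present in 13 of the 36 windows of genes called lower (36.1%), against 1623 of 9502 among all tested genes with a window (17.1%). On the gene's own strand it was in 11 of the 36 (30.6%), against 920 of the 9502 (9.68%). Its 12 own-strand matches in the lower genes lay 41 to 124 bases before the RefSeq start, with a median of 74. Positions were not taken for all tested genes, so this range has no background. The RefSeq start lay 362 bases from the annotated one for Zfp786 and 92 bases for Nr2c1. The core consensus matched in 3 of the 36 (8.33%), Dennd6b, Adprhl2 and Krtcap2, against 127 of the 9502 (1.34%). The share was much the same in genes lower in CTCF-AID cells but not called after AGB1, where AGGGGGC was in 18 of 50 windows (36%; own strand 32%) and the core consensus in 3 (6%). Among the 7 windows of genes called higher, AGGGGGC was in 1, that of Pxylp1, and the core consensus in none. These matches describe letters only. Snhg17, Dusp12, Mrps2 and Nle1 were among the genes called lower whose windows held neither pattern. Only exact letters were matched, so a window without a match can still hold a CTCF motif. Of the reporter promoters, the study describes Dusp12 and Tab1 as lacking a canonical motif, while a CTCF motif was mutated in that of Mrps2.

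The responses were then set against gene groups defined in other cell lines and libraries, none of which entered the AGB1 comparison. CTCF-AID mESCs lose full-length CTCF through an auxin-inducible degron, here for 6 h. Of 112 tested transcripts called lower in CTCF-AID cells, 38 were called lower after AGB1 (33.9%, against 0.316% of all tested) and none higher. These 38 were 90.5% of the 42 lower transcripts that could be tested in CTCF-AID cells. In 92 of the 112, both AGB1 libraries lay below both controls, against 20.2% of all tested, and 64 were lower at the adjusted p alone. The median change of the 112 was -0.79 after AGB1, beside 0.01 for all tested. Their median in CTCF-AID cells, -1.49, had chosen them and is no comparison.

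YF-AA mESCs carry full-length CTCF with a mutated cohesin-binding site, Y226A/F228A, and lose it through dTAG13 (2 h). Where a transcript was lower in both CTCF-AID and YF-AA cells, 34 of 61 were also called lower after AGB1 (55.7%, against 0.316% of all tested). Their median was -1.11. Both AGB1 libraries lay below both controls in 56 of the 61, against 20.2% of all tested. Only 8 tested transcripts were lower in CTCF-AID cells but changed less than 1.2-fold in YF-AA cells. Of these 8, 0 were called after AGB1, a share that cannot be told from the 0.316% of all tested called lower. In 2 of the 8 both AGB1 libraries lay below both controls and in 1 above, against 20.2% and 19.9% of all tested. Their median was -0.00, with extremes Rnd3 at -0.55 and Spry4 at 0.58. Of 64 transcripts called lower after 4 h of RAD21 loss, the cohesin subunit, 0 were called after AGB1 by edgeR, a share that cannot be told from the 0.316% of all tested. In 14 of the 64 both AGB1 libraries lay below both controls and in 16 above, near the 20.2% and 19.9% of all tested. One was lower at the adjusted p alone, and the median was -0.00.

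Among 74 tested transcripts called higher in CTCF-AID cells, 5 were called higher after AGB1 (6.76%, against 0.0881% of all tested), namely Gm37933, Gm33195, Zcwpw2, Tnni1 and Grk4. In 37 of the 74 both AGB1 libraries lay above both controls, against 19.9% of all tested. Their median was 0.24.

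**Figure D3:**
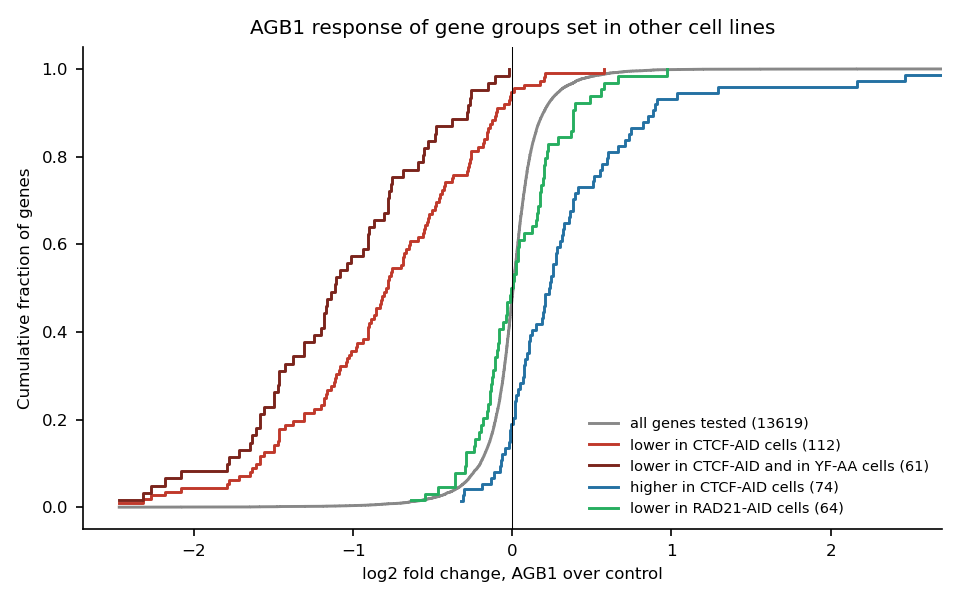
Cumulative fraction of genes (vertical axis) by log2 fold change of AGB1 over control (horizontal axis) for all genes tested and for groups called in other cell lines, with the number of transcripts in brackets. The groups lower in CTCF-AID cells are shifted to the left (medians -0.79 and -1.11), the group lower after RAD21 loss is centred on 0, and the group higher in CTCF-AID cells lies to the right (median 0.24).

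Of the 112 transcripts lower in CTCF-AID cells, 22 changed by less than 1.2-fold after AGB1. Among the 57 tested transcripts of that group that were also expressed in CTCF-AID cells, Utf1, a pluripotency-associated chromatin factor, was at 6.82 and 7.09 CPM in control and 6.96 and 6.02 CPM in AGB1 libraries (log2 -0.10, SE 0.21). Pdk1, a mitochondrial kinase that responds to hypoxia, was at 22.7 and 23.9 CPM against 24.3 and 24.5 CPM (log2 0.07, SE 0.11). Foxd3 was at 9.45 and 9.01 CPM against 8.03 and 7.35 CPM (log2 -0.26, SE 0.18). Fst (0.17), Platr1 (-0.02), Zc3h7a (-0.16) and Dennd4b (-0.21) also did not pass. All 7 were named after their values had been seen. The CTCF-AID changes of Utf1, Pdk1 and Foxd3 were -1.85, -1.36 and -1.03.

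Conversely, 5 transcripts called lower after AGB1 were not in the CTCF-AID lower group. Slc6a14, an amino acid transporter gene, was too low to be tested there, and its AGB1 call was lost with DESeq2 (adjusted p = 0.298) and without AGB1 replicate 2 (adjusted p = 0.0709). In CTCF-AID cells Traf6 was at -0.86 (adjusted p = 0.269), Mipep at -0.99, the phosphoinositide phosphatase gene Inpp5e at -0.97 (adjusted p = 0.143) and Rmrp at 0.36 (adjusted p = 0.378). Traf6 and Mipep were called lower in YF-AA cells (-1.10 and -1.69). Inpp5e fell from 16.3 and 18.2 CPM to 8.50 and 8.27 CPM after AGB1 (log2 -1.04; -0.95 without control replicate 2).

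A fixed list held 13 of the genes whose promoters the study's text names as CTCF-dependent. It was chosen with earlier results known and is no independent evidence. In all 13 both AGB1 libraries lay below both controls, against 20.2% of all tested. All 13 were also lower at the adjusted p, as 203 of the 13619 tested were. Of the 13, 6 passed 2-fold and were called lower (46.2%, against 0.316% of all tested), and the median was -0.93. These 6 were Mrpl23, Dusp12, Ttc5, Mrps2, Tab1 and Nle1. Polr2c, a subunit of RNA polymerase II, went from 52.6 and 53.6 CPM to 29.0 and 26.5 CPM (log2 -0.93, SE 0.09). Polr3a, the largest subunit of RNA polymerase III, went from 98.2 and 90.4 CPM to 55.6 and 56.5 CPM (log2 -0.74, SE 0.07). The ribosome assembly gene Bysl (log2 -0.89), the Rab prenylation gene Rabggta (-0.78), the proteasome gene Psmd6 (-0.70), the splicing factor gene Rbm17 (-0.69) and Wdr70 (-0.69) made up the rest. Psmd6 was at 61.6 and 63.7 CPM in control and 39.2 and 37.8 CPM in AGB1 libraries. The text also names Zbtb39, called above, and others outside the list. Of these, Pabpc4, a poly(A)-binding protein gene (log2 -0.91, SE 0.06), Rbm45 (-0.83, SE 0.08) and Vps36 (-0.82, SE 0.13) passed the adjusted p without reaching 2-fold, and App, the amyloid precursor gene, did not pass (-0.33, SE 0.12, adjusted p = 0.203).

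A second fixed list held Lsm11 and Ocel1, which are among the genes named as repressed by promoter-bound CTCF, and both rose without reaching 2-fold. Lsm11, a component of the U7 particle that processes histone mRNA, went from 43.5 and 49.3 CPM to 67.4 and 69.2 CPM (log2 0.56, SE 0.08, adjusted p = 1.25e-05). Ocel1 went from 3.23 and 3.94 CPM to 6.26 and 7.04 CPM (log2 0.90, SE 0.24, adjusted p = 0.0475), and was called at 1.05 without control replicate 2. It did not pass with DESeq2 (adjusted p = 0.701) or without any other single library (adjusted p from 0.0606 to 0.320). Of the genes so named outside the list, Mrps16 (log2 0.71, SE 0.12, adjusted p = 0.000161) and Kctd6 (0.38, SE 0.06, adjusted p = 0.000234) were higher at the adjusted p alone, and Mlst8 did not pass (0.03, SE 0.09, adjusted p = 0.957). Psmd4 (log2 -0.04, SE 0.06) and Actn4 (-0.03, SE 0.05), whose promoters serve as reporter controls, did not pass the test.

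Of 6 tested genes that the study names as enhancer targets, 0 were called by edgeR, where 0.316% of all tested were called lower, so this count says nothing particular of them. In 4 of the 6 both AGB1 libraries lay below both controls and in 0 above, against 20.2% and 19.9% of all tested. The median was -0.08. One passed the adjusted p alone, Sik1, a salt-inducible kinase gene, at 89.7 and 91.9 CPM in control and 74.6 and 73.1 CPM in AGB1 libraries (log2 -0.29, SE 0.06, adjusted p = 0.00571). Sox2 was at -0.14 (SE 0.05, adjusted p = 0.214), Prdm14 at -0.16 (SE 0.07, adjusted p = 0.290), Klf4 at -0.03 (SE 0.05), Epha4 at -0.02 (SE 0.05) and Slco5a1 at -0.01 (SE 0.09). Dlk1 and Dio3 did not reach the count filter. Slco5a1 differs in kind, since the study describes enhancer activity as redirected to it when CTCF binding is lost. It was called higher in CTCF-AID cells (log2 1.42), so the counts and median above mix genes of both kinds.

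Among all 13619 transcripts tested, 0.316% were called lower, and 203 were lower and 89 higher at the adjusted p alone. Mitochondrial ribosomal proteins had 2 of 80 tested transcripts called lower, Mrps2 and Mrpl23, with a median of 0.04, and Mrps16 was higher at the adjusted p alone (log2 0.71, adjusted p = 0.000161). Among small nucleolar RNA hosts 1 of 9 was called, Snhg17, with a median of -0.03. RNA polymerase subunits had 0 of 28 called and 3 lower at the adjusted p (median 0.01), proteasome subunits 0 of 35 and 2 (median 0.02), and cytosolic ribosomal proteins 0 of 84 and 4 (median 0.03). Rpl5 was the most changed of the last, at 336.9 and 346 CPM in control and 251 and 246 CPM in AGB1 libraries (log2 -0.45, SE 0.05). The replication-dependent histones had 0 of 56 called and 2 lower at the adjusted p, with a median of -0.06.

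Of all tested, 0.316% were called lower and 0.0881% higher, so counts of 0 in lists of this size say nothing particular of them. No member of the CTCF and cohesin list was called. Stag1, a cohesin subunit gene, was higher at the adjusted p in both of its tested transcripts (log2 0.23 and 0.29), and Rad21 was at 314 and 306 CPM against 301.5 and 300.6 CPM (log2 -0.04, SE 0.05). Naive pluripotency genes had 0 of 17 tested transcripts called and a median of -0.04. Dppa3 was the only one past the adjusted p (88.4 and 80.8 CPM against 97.8 and 108.6 CPM, log2 0.30). The lists of formative and primed pluripotency (6 tested, median -0.13), immediate early (13, median -0.18), hypoxia-response (18, median 0.02), BET-sensitive (6, median -0.04) and p53 target genes (16, median -0.08) had no member past the adjusted p. Zfp36 was at 2.27 and 2.36 CPM against 4.37 and 2.76 CPM (log2 0.60, adjusted p = 0.510).

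Clustered protocadherins, neuronal adhesion genes that are a classic case of CTCF-dependent promoter choice, had 21 transcripts tested, all of the gamma cluster. None was called, where 0.316% of all tested were called lower. At the adjusted p 3 were lower (Pcdhga1, Pcdhga2 and Pcdhgb1), but in 20 of the 21 both AGB1 libraries lay below both controls, against 20.2% of all tested. Pcdhga1 was at 45.4 and 46.7 CPM in control and 35.9 and 35.3 CPM in AGB1 libraries (log2 -0.37, SE 0.09, adjusted p = 0.0128). The median was -0.29. The genes of this cluster overlap and share their last exons, so their values are not independent of each other.

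AGB1 was also compared directly with dTAG13, which removes the ΔC form in the same line for the same 2 h (100 or 200 nM, since the sources differ) and leaves the ΔN form. The test used the 2 AGB1 and 2 dTAG13 libraries and no control. It called 40 transcripts lower with AGB1 than with dTAG13 (0.292% of 13678 tested) and 7 higher (0.0512%). It shares its AGB1 libraries with the comparison against control, so the values of both are given side by side only. Snhg17 was at 153.7 and 147 CPM with dTAG13 against 31.0 and 30.2 CPM with AGB1 (log2 -2.29, SE 0.07, adjusted p = 2.83e-12). Dusp12 (36.4 and 38.3 CPM with dTAG13) differed by -1.98 (SE 0.12), and Csnk2a2 (144.4 and 146.2 CPM) by -1.34 (SE 0.06). Gm23925 differed by -2.56 (SE 0.31).

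In the other direction Gm37933 was at 1.04 and 1.14 CPM with dTAG13 and differed by 3.76 (SE 0.24, adjusted p = 1.27e-07), and Gys1 (49.9 and 42.6 CPM) by 1.07 (SE 0.08). Zcwpw2 differed by 2.58. Gm33195 (1.04 and 1.81 CPM with dTAG13, adjusted p = 0.595) and Gm6209 (2.34 and 1.34 CPM, adjusted p = 0.277) did not pass. Neither did Rmrp (adjusted p = 0.508). Among the 13 listed promoter targets, the differences from dTAG13 ran from -1.98 for Dusp12 to -0.67 for Polr3a and Wdr70. The count of 7 higher transcripts changed to 12 with the replicate number as a block, to 11 without AGB1 replicate 1 and to 14 without dTAG13 replicate 2.

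**Figure D4:**
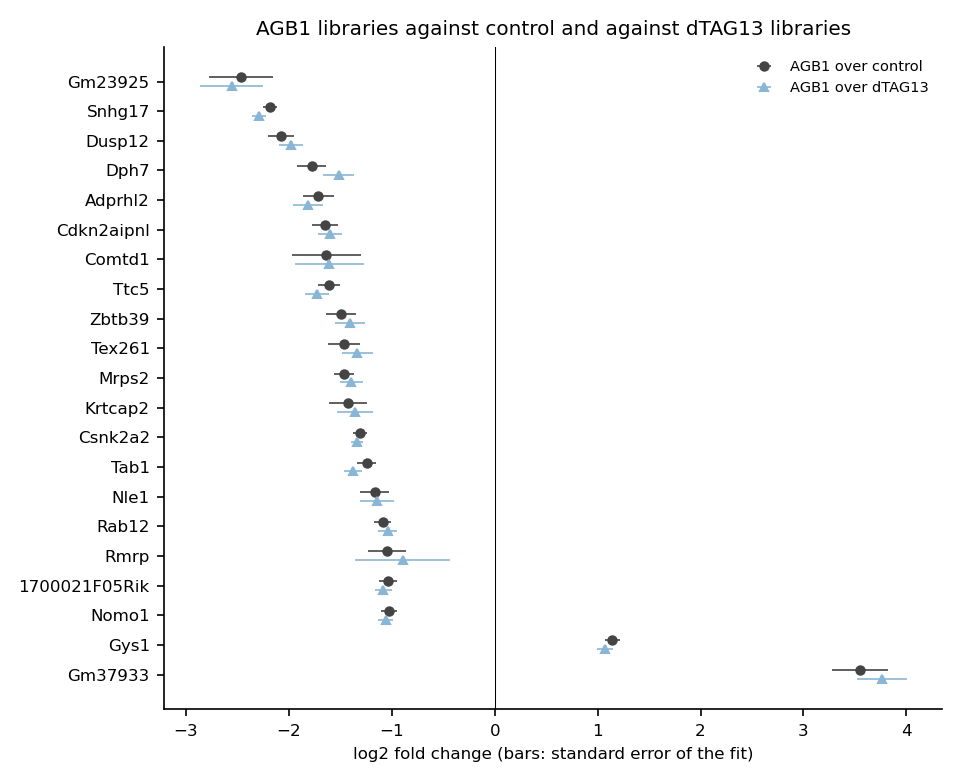
Log2 fold changes (horizontal axis) of the expressed called genes picked by the naming rule given under processing. Shown are AGB1 over control (grey) and AGB1 over dTAG13 (blue), with standard errors of the fit as bars. Traf6, Bak1 and Inpp5e fall outside that rule and are not shown. The values of the same gene lie side by side because both use the same 2 AGB1 libraries, for example -2.18 and -2.29 for Snhg17 and 1.14 and 1.07 for Gys1.

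With both agents, which leaves neither form, some genes were lower still and others were not. These libraries are given side by side with the others, with no test. Snhg17 was at 17.3 and 19.5 CPM with both agents, below its 31.0 and 30.2 CPM with AGB1 alone. Tab1 was at 14.8 and 14.2 CPM, 1700021F05Rik at 16.9 and 16.6 CPM, Nle1 at 4.06 and 3.49 CPM and Wdr70 at 81.2 and 89.1 CPM, against 115.8 and 123.9 CPM for Wdr70 with AGB1 alone. Nomo1 (40.5 and 41.8 CPM), Zbtb39 (7.85 and 6.77 CPM) and Gys1 (98.7 and 92.0 CPM) were close to their AGB1 values.

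Last, the effect of AGB1 was compared with that of dTAG13 in YF-AA cells, where nothing of the mutated full-length CTCF is meant to remain, at the same 2 h. The interaction term of a fit over 8 libraries was called for 10 of 14636 transcripts, all with a higher value after AGB1 (0.0683%), and 0 with a lower one. At an unadjusted p under 0.05 there were 1093, and DESeq2 called 4. The count was 5 without control replicate 1 or AGB1 replicate 2, 6 without control replicate 2 or YF-AA dTAG13 replicate 2, and 7 to 13 without each of the others. Line, degron, degrader and dose (100 nM AGB1, 200 nM dTAG13), library kit and batch cannot be told apart here. The YF-AA libraries were made with a kit that does not mark strand. Of the 10 genes, 5 overlap another gene on the opposite strand, against 15.8% of all tested after AGB1. Gm47889 and 1700021F05Rik among them overlap each other. Fndc8, opposite Nle1, was not tested. Haspin, opposite Itgae, was not called in either line (0.14 after AGB1 and 0.21 in YF-AA cells).

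Nle1 fell in both lines, by 1.17 after AGB1 and by 2.23 in YF-AA cells, where it went from 46.4 and 55.7 CPM to 12.8 and 9.86 CPM (difference 1.07, SE 0.23, adjusted p = 0.00445). For 1700021F05Rik the changes were -1.04 and -2.10 (difference 1.05, SE 0.18, adjusted p = 1.91e-05), with 56.4 and 54.0 CPM falling to 11.4 and 13.4 CPM in YF-AA cells. Wdr70 fell by 0.69 after AGB1 and was at -1.49 in YF-AA cells, a difference that passed the test but not 2-fold (0.79, adjusted p = 1.93e-09). Fam69b passed the expression threshold over the 8 libraries but not in the AGB1 comparison (mean 12.48 TPM). It differed by 1.02 (adjusted p = 0.0447), at 0.40 and -0.62. Its controls gave 4.78 and 5.86 CPM in the ΔN/ΔC line and 38.15 and 42.87 CPM in YF-AA cells. Snhg17 (difference -0.19, SE 0.12), Csnk2a2 (0.01) and Rbm17 (0.02) did not pass, and neither did Tab1 (0.59, adjusted p = 0.0725). Gm47889 and Ggnbp1, which lie opposite 1700021F05Rik and Bak1, were at -1.73 and -1.04 in YF-AA cells and at 0.02 and 0.20 after AGB1. In the YF-AA libraries the reads of the 2 strands cannot be told apart. YF-AA controls had 59.85 and 57.75 CPM for Gm47889, beside 56.4 and 54.0 CPM for 1700021F05Rik. In the ΔN/ΔC controls these were 3.95 and 5.97 CPM, beside 56.6 and 59.1 CPM.

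**Figure D5:**
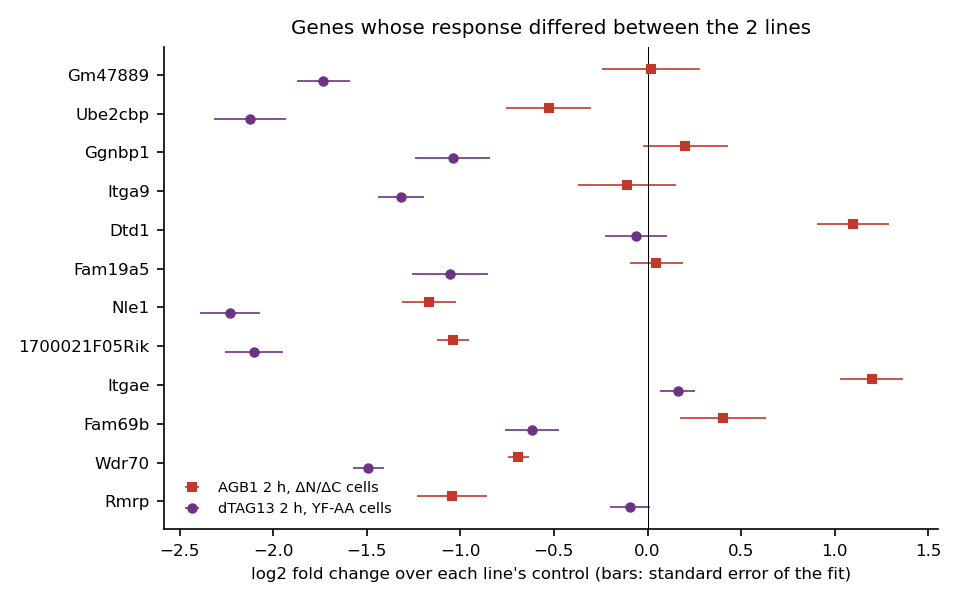
Log2 fold changes over each line's own control (horizontal axis) for the 10 genes called in the interaction test and for Wdr70 and Rmrp, after AGB1 in ΔN/ΔC cells (red squares) and after dTAG13 in YF-AA cells (purple circles), with standard errors of the fit as bars. Nle1 and 1700021F05Rik are lower in both lines and further from 0 in YF-AA cells (-2.23 and -2.10), and Rmrp is at -1.04 after AGB1 and -0.09 in YF-AA cells.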

How the data were processed

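EU-seq counts were used from 8 libraries of the ΔN/ΔC line and from CTCF-AID, YF-AA and RAD21-AID libraries, out of 60. The deposited counts are whole reads per gene body, which the authors made by aligning to mm10 with BWA, filtering with SAMtools 1.4, removing ribosomal and transfer RNA reads and counting with HTSeq. Names and gene bodies came from GENCODE M21 (of 27665 transcripts, 210 did not match and kept their identifiers). Groups came from the labels. The main test was edgeR 4.0.16 (quasi-likelihood, TMM, Benjamini-Hochberg, R 4.3.3) on transcripts averaging more than 20 reads in either group. Fold changes were centred on the median of expressed genes (mean above 15 TPM over the gene body), a shift of -0.005. DESeq2 1.42.0, RLE factors, other filters, the replicate block, all 8 libraries, no centring, a 1.5-fold threshold and leaving out libraries were alternatives. The CTCF-AID fit had library type as a covariate, and the interaction fit had line. CPM values were TMM-normalised over the 8 libraries, and separately for YF-AA, and the fits were tested on simulated data. SEs are those implied by the F statistic. Named genes were the 14 largest decreases and 8 largest increases among expressed called genes (there were 2 increases), the 4 most abundant other lower genes, the 3 largest changes each way among genes not expressed, the members of 4 short lists of genes from the study's text, Ctcf, Ctcfl (not tested for low counts) and Rad21, and the 3 largest called differences each way among expressed genes in the other tests. The members and the 24 gene lists were chosen with earlier results of these data known.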

Additional observations from a re-analysis of the deposited data

Results flagged for a closer look

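The effect of AGB1 in ΔN/ΔC cells and of dTAG13 in YF-AA cells differed by the interaction test for 12 called or named genes. The difference (AGB1 effect minus YF-AA effect, log2) was 1.75 for Gm47889, 1.59 for Ube2cbp, 1.23 for Ggnbp1, 1.2 for Itga9, 1.15 for Dtd1, 1.10 for Fam19a5, 1.07 for Nle1, 1.05 for 1700021F05Rik, 1.03 for Itgae, 1.02 for Fam69b, 0.79 for Wdr70 and -0.97 for Rmrp. Gm47889, Ggnbp1 and Itgae overlap 1700021F05Rik, Bak1 and Haspin on the opposite strand. Rmrp differed between its AGB1 replicates (258.7 and 93.7 CPM). Control levels of some genes differed widely between the lines. Itga9 had 4.54 and 4.50 CPM in ΔN/ΔC and 73.56 and 67.76 CPM in YF-AA controls, and Itgae 6.22 and 7.77 against 77.06 and 71.75 CPM. Those of Fam19a5 were closer (14.47 and 14.86 against 20.45 and 23.62 CPM). Library kit, line, degron, degrader and dose changed together, and their part in these differences cannot be told apart.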

How the results depend on the processing

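Against control, the 43 lower transcripts became 35 to 45 under DESeq2, RLE factors, both other filters, the replicate block, all 8 libraries and no centring, and 41 to 46 when 1 library was left out. The 1.5-fold threshold gave 96 lower and 35 higher transcripts, and 58 and 11 in the CTCF-AID lower and higher groups. Against dTAG13 it gave 87 and 26, and in the interaction 29. DESeq2 gave 7 higher transcripts against control and 4 in the interaction. Without one library, higher calls ranged from 8 to 14 against control and from 6 to 14 against dTAG13, and interaction calls from 5 to 13. With no filter 16 were higher against dTAG13, and with the replicate block 12. The block gave 43 lower and 14 higher transcripts against control and changed no further count by over 1.5 times. The numbers were not shown to pair the samples (correlation of same-numbered deviations over 8546 genes -0.0056 between control and AGB1 and 0.117 between AGB1 and dTAG13, with 2 pairs each). Of 523 fold changes of named genes under these alternatives, 510 kept direction and call, 9 lost the call and 1 gained it, and 3 near 0 changed sign: Ctcf (-0.0275 to 0.0156 without one library), Klf4 (-0.103 to 0.0505) and Slco5a1 (-0.0339 to 0.0071). The cause was not tested. The stricter filter (50 reads) left 6 of the lower and 3 of the higher transcripts untested.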
